A study of Homo sapiens with 28 samples.

Results

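The short arm of chromosome 17 (17p) was described through the 1160 accessible regions that lie on chromosome 17 and end at or below position 22200000 of GRCh37, of 154985 autosomal regions in all. These regions ran from position 13398 to position 22194671, had a median width of 422 bp and covered 572229 bp together. ATAC-seq, in which a transposase inserts adapters into open DNA, had been performed once on each of 22 untreated myeloma cell lines, and again on Karpas620, KMS27, L363, MM1S, OPM2 and RPMI8226 after exposure to 10 µM lenalidomide, analysed on day 3. Lenalidomide binds the cereblon ubiquitin ligase and causes loss of the transcription factors IKZF1 and IKZF3. The untreated group holds H1112, Karpas620, KMS11, KMS12BM, KMS12PE, KMS18, KMS20, KMS21BM, KMS26, KMS27, KMS28, KMS34, L363, LP1, MM1S, OCIMY5, OPM2, PCM6, PE1, RPMI8226, U266 and XG-6. All were established lines grown in culture. KMS12BM and KMS12PE are known to derive from the same patient and are not independent of each other.

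Loss of 17p is an established high-risk lesion of myeloma. The arm carries TNFRSF13B, which encodes the TACI receptor for the plasma cell survival ligands BAFF and APRIL, the stress kinase gene MAP2K4, the corepressor gene NCOR1 and the proteasome subunit gene PSMB6. Transposase also cuts closed DNA at a low rate, so the reads that fall where a library has no peak follow the amount of DNA as well as residual openness. Such reads were used here in place of a copy number, which was not measured.

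The libraries held between 1599857 and 5564534 counts in the untreated lines and between 2168680 and 4248017 after lenalidomide. A library's called regions were those with at least 1 of its own peaks, between 18943 and 58983 per untreated library. Plasma cell identity was checked at the start regions of marker genes. All 8 plasma cell markers had a region within 2.5 kb of their start, and 7 of them were called in at least 18 of 22 lines, whereas SLAMF7 was called in 2. The B cell markers PAX5, MS4A1 and CD22 were called in 3, 2 and 1 lines, CD3E and CD3D in 1 each, CD14 in 2, EPCAM in 9 and COL1A1 in 21. CD2, MPO, LYZ, ALB and MYOD1 had no region within 2.5 kb.

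Base sequence is given for the centres of 6 regions of 17p. The first 4 vary most between lines among those whose central 200 bases lie outside annotated exons. The last 2 lie in the segments of high background ratio in KMS26 and KMS12BM. They had the highest fold over other lines among 17 and 4 candidate regions of these segments. The fold at TIMM22 was 3.91 in KMS12BM, and another region of that segment reached 6.42. All 6 sequences are the plus strand of the GRCh37 reference. Capitals mark matches on either strand to the GC box (GGGCGG), an ETS core (CGGAAG) or the CCAAT box. They also mark the E-box bound by MYC and other factors (CACGTG) and the AP-1 site (TGACTCA).
FAM64A, upstream of the start, chr17:6347323-6347522: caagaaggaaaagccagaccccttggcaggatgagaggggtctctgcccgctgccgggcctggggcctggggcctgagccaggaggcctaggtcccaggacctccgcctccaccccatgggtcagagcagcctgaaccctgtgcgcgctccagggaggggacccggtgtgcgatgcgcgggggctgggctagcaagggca
ANKFY1, intronic, chr17:4079576-4079775: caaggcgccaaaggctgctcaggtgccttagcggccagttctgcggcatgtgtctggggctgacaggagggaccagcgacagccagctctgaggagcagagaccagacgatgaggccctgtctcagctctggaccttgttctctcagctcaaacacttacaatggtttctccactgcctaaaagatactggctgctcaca
Intergenic, downstream of RAP1GAP2, chr17:2952176-2952375: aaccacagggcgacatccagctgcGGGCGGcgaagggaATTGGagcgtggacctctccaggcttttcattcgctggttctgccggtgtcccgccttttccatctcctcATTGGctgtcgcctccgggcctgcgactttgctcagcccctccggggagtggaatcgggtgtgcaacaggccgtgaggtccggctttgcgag
SMG6, intronic, chr17:2126412-2126611: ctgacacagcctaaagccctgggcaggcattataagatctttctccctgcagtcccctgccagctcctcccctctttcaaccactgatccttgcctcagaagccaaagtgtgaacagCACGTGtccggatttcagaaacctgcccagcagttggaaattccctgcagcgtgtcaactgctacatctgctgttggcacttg
MPRIP, upstream of the start, chr17:16945307-16945506: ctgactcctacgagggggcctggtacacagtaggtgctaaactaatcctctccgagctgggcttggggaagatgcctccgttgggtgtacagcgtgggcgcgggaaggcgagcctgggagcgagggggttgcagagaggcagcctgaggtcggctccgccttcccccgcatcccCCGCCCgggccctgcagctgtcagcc
TIMM22, upstream of the start, chr17:900062-900261: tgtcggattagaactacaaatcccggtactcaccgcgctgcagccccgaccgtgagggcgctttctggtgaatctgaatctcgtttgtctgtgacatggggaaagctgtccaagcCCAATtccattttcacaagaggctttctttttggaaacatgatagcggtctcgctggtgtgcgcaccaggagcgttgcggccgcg
The central bases of the SMG6 region held the E-box, and the region downstream of RAP1GAP2 held GGGCGG once and CCAAT at 2 positions. These letters are matches, and binding was not measured.

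Sequence differed between the widely and rarely called regions of 17p. In the central 200 bases, the GC box was present in 63.5% of the 126 regions called in at least 18 of 22 lines and in 12.0% of the 524 called in no line or in 1. The ETS core was present in 33.3% and 6.11%, the CCAAT box in 36.5% and 18.3% and the E-box in 11.9% and 4.77%. The AP-1 site went the other way, with 3.17% of the widely called and 10.9% of the rarely called regions. The same split on other arms, or by distance to a start, is not given here, so these shares do not set 17p apart. The RefSeq promoters (GRCh38.p14, 300 bases) of 40 of 45 listed genes of 17p were found, and the GC box was in 65.0% of them against 45.0% of 35116 promoters. The AP-1 site was in 7.5% against 4.95%, the ETS core in 22.5% against 19.5%, the CCAAT box in 27.5% against 34.6% and the E-box in 7.5% against 7.26%. GC content had a median of 54.3% in regions of 17p, 52.5% in the 3517 regions of 17q and 46.9% over all regions. A transcription start lay within 2.5 kb of 49.2% of 17p regions (exact binomial 95% interval 46.3 to 52.1), 43.7% of 17q regions and 26.5% of all regions.

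Background reads on 17p were spread around the average line, and 7 lines were at or below -0.2 on the log2 scale over the arm. For each library, reads in uncalled regions of an arm were divided by expected reads. These came from region rates fitted jointly with library rates over all uncalled regions of the 22 untreated libraries, with no arm or untreated library held out. The quotient was divided by the median of 39 arms, and the result is called the background ratio, given as log2. It is relative to the average of the 22 lines, so a loss shared by most lines would set the baseline. The 22 ratios ran from -0.33 to 0.42 with a median of 0.00, and the SD over lines was 0.23. This SD ranked 19 from the highest among 39 arms, which ran from 0.13 for 3q to 0.32 for 22q. The 3 lowest lines were KMS18 at -0.33 (exact Poisson 95% interval -0.39 to -0.27, from 2328 reads), KMS11 at -0.33 (-0.38 to -0.28, from 3714 reads) and XG-6 at -0.29 (-0.35 to -0.24, from 2834 reads). On a linear scale these are 0.794, 0.796 and 0.817 of the average line. The 3 highest were LP1 at 0.42 (0.38 to 0.46), OPM2 at 0.28 (0.23 to 0.33) and OCIMY5 at 0.27 (0.23 to 0.31). Within LP1 and within the untreated library of MM1S, 17p had the highest ratio of all 39 arms. In the lenalidomide library of MM1S, 17p ranked 31 from the lowest. The intervals cover counting error only, and the intervals of neighbours in this order overlapped except between KMS12BM and PE1, KMS34 and Karpas620, and OPM2 and LP1. The SD between the untreated and lenalidomide libraries of a line, described later, was 0.08.

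At or below -0.2, the size that the study's methods use for a copy number loss, were 7 of 22 lines, KMS18, KMS11, XG-6, KMS20, KMS12PE, PCM6 and KMS12BM. That is 31.8% of lines, and over all pairs of arm and line 17.2% had such a ratio. No arm had more than 7 lines at or below it. The study applied that size to exome sequencing of myeloma against normal DNA in a band of 17p. The count here is of whole arms relative to other lines, and is not a count of the study's 17p deletion. KMS26 at -0.54 from 0 to 15 Mb and KMS28 at -0.40 from 0 to 9 Mb were not counted. KMS12BM was counted, with 1.36 over the first 2 Mb. Both lines from the same patient are among the 7, KMS12PE at -0.26 and KMS12BM at -0.20. KMS18, KMS11 and XG-6 stayed at or below -0.2 under all 8 other ways of computing the ratio.

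**Figure D1:**
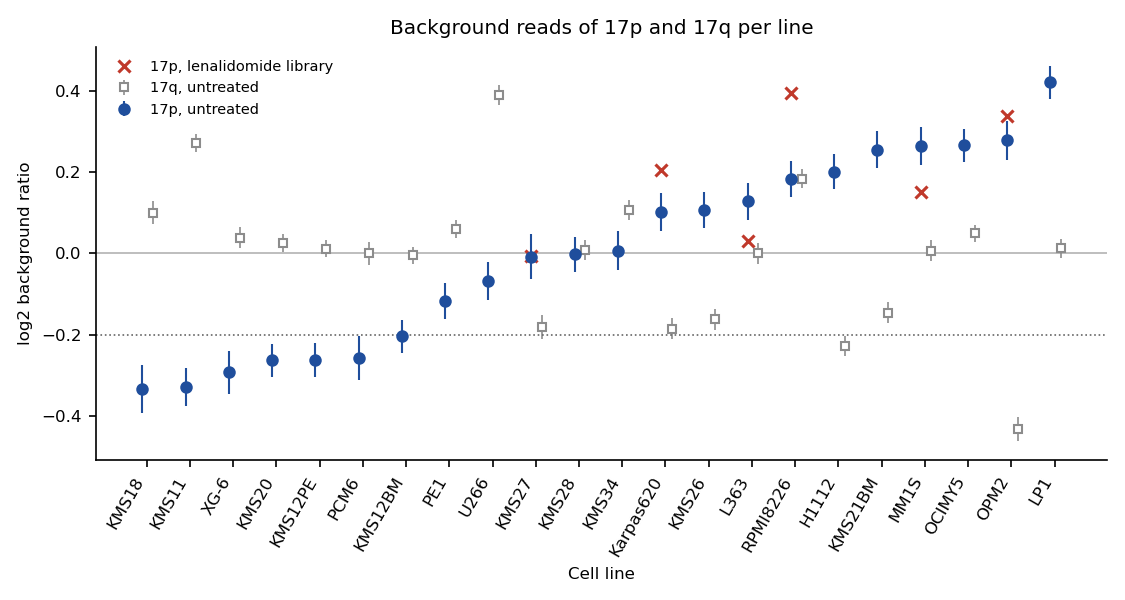
The log2 background ratio of 17p (filled circles) and 17q (open squares) in the 22 untreated lines, ordered by 17p, with exact Poisson 95% intervals as bars, and the ratio of 17p in the 6 lenalidomide libraries (crosses). The 7 lines on the left lie at or below the dotted line at -0.2, and RPMI8226 has the widest gap between its libraries.

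The long arm did not follow the short arm. The 17q ratio ran from -0.43 in OPM2, whose 17p was 0.28, to 0.39 in U266, whose 17p was -0.07. Over 22 lines the correlation of the ratios was -0.42 (Pearson) and -0.40 (Spearman), and -0.45 without LP1 and KMS18, the lines farthest from the median. Both arms share a library and its scaling, so this is a description. The 17p ratio had no such relation to the library total (Pearson r -0.02) or to the share of regions called (r -0.09).

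The 6 lines with a second library gave the difference between libraries of a line. The second library was treated with lenalidomide, so this difference holds treatment as well as library error. Within a line the 17p ratio differed by 0.10 on average, between -0.11 in MM1S and 0.21 in RPMI8226 (lenalidomide minus untreated), against 0.16 between libraries of different lines. That difference did not pass an exact permutation test over all 720 pairings (p = 0.0972, 0.162 adjusted by Benjamini-Hochberg over 5 tests). The 17p ratio minus the 17q ratio differed by 0.05 within a line and by 0.26 between lines, the smallest within-line difference of any pairing (exact permutation p = 0.00139, adjusted 0.00694). The values were 0.71 and 0.58 in OPM2, 0.29 and 0.26 in Karpas620, 0.26 and 0.20 in MM1S, 0.17 and 0.17 in KMS27, 0.13 and 0.09 in L363 and 0.00 and -0.04 in RPMI8226 for the untreated and the lenalidomide library. The gap between the libraries of a line was largest in OPM2.

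Along the arm the ratio changed in steps, and the largest were in KMS26 and KMS12BM. The arm was cut into 1 Mb windows and each line was given the single split that best divided its windows, a search made after the data were seen and one that returns a split for any line. The step ranged from 0.21 to 1.75 in size with a median of 0.39. In KMS26 the split fell at 15 Mb, with -0.54 on the telomeric side and 1.20 on the centromeric side. In KMS12BM it fell at 4 Mb and ran the other way, from 0.79 to -0.46. The next were L363 at 16 Mb (-0.22 to 0.61), KMS28 at 9 Mb (-0.40 to 0.41), KMS20 at 20 Mb (-0.32 to 0.47) and OPM2 at 8 Mb (-0.10 to 0.53). L363 and OPM2 have a second library, in which the step at the same split was 0.62 and 0.51, against 0.82 and 0.63 in the first. The step had the same sign in the second library in 6 of 6 lines.

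**Figure D2:**
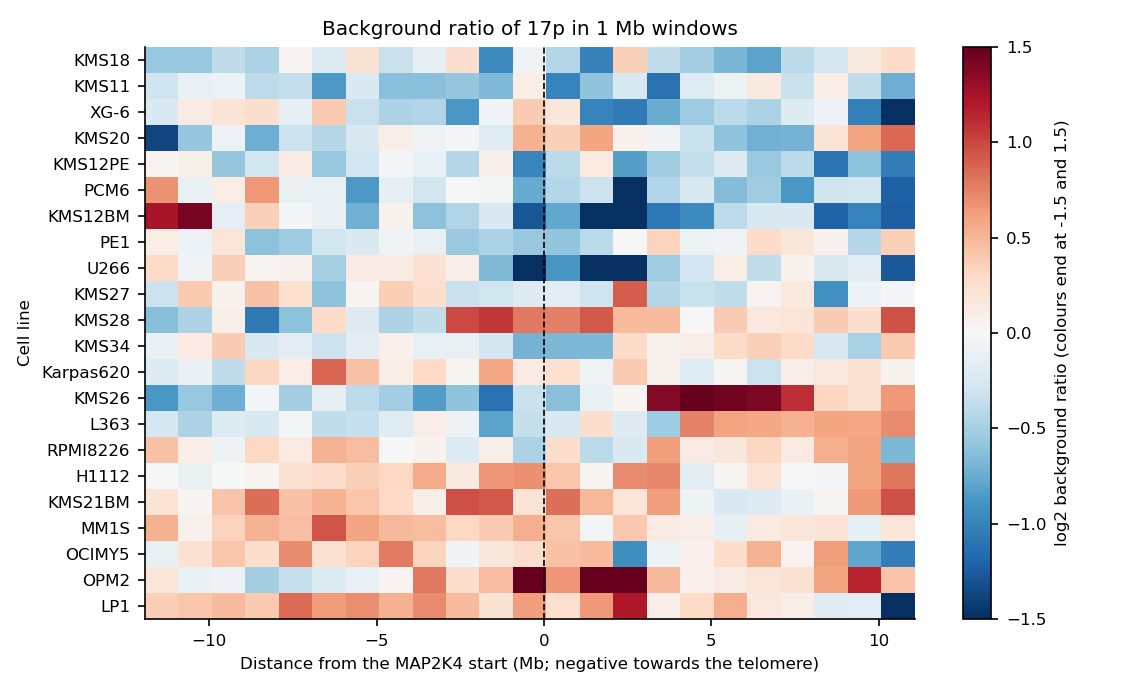
The log2 background ratio in 1 Mb windows of 17p for the 22 untreated lines, ordered by the ratio of the arm, against distance from the MAP2K4 start (dashed line, base 11924194 of the chromosome). KMS26 is high from 15 to 20 Mb and KMS12BM over the first 2 Mb. U266 and KMS12BM are low from 11 to 15 Mb.

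From 15 to 20 Mb, KMS26 had 1698 background reads where 586.3 were expected, a ratio of 2.90. The window from 16 to 17 Mb was at 2.33 on the log2 scale (2.199 to 2.463). Between 0 and 15 Mb the ratio was 0.686, and from 20 to 23 Mb 1.22. KMS12BM had 884 reads for 344.6 expected over the first 2 Mb, a ratio of 2.56, and 0.630 from 11 to 23 Mb. Its sister line KMS12PE had 1.06 over the first 2 Mb and 0.720 from 11 to 23 Mb. The low proximal part was therefore seen in both sister lines, and the high telomeric part in KMS12BM. The windows of the sister lines had a Pearson r of 0.53 over 22 windows.

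The stretch from 11 to 15 Mb holds 92 regions and few reads. U266 had 61 reads there for 208.2 expected, a log2 ratio of -1.77 (-2.16 to -1.41), while its ratio was 0.07 from 0 to 11 Mb and -0.13 from 15 to 23 Mb. The widely called regions of U266 showed no such drop, with a median fold over the other lines of 0.651 in 4 regions of this stretch, 0.848 in 69 from 0 to 11 Mb and 0.673 in 53 from 15 to 23 Mb. U266 was not alone in this stretch. The windows of KMS12BM ran from -0.77 between 12 and 13 Mb to -2.66 between 14 and 15 Mb, where U266 was at -1.66. OPM2 was at 1.35 (1.17 to 1.52) in this stretch, and its lenalidomide library was at 1.16 (0.99 to 1.32). KMS20 had 102 reads for 264.3 expected in the first 1 Mb, a log2 ratio of -1.37 (-1.67 to -1.09). These stretches were picked from the windows after they were seen. Over the 22 windows, the libraries of a line correlated with a Pearson r of between 0.60 in Karpas620 and 0.90 in OPM2.

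Regions that nearly all lines had open moved with the background. For the 126 regions of 17p called in at least 18 of 22 lines, the difference of log2(CPM + 1) from the median of the other untreated lines was taken, where CPM is the count of a region scaled to the library's total and 1 is the pseudocount. The step in these regions had the sign of the background step in 21 of 22 lines, with RPMI8226 the exception (Pearson r 0.93, Spearman rho 0.81, and r 0.87 without KMS26 and KMS12BM). Both measures come from the same library. Of the 126 regions 46 were called in all 22 lines. Any other entered both measures in a line where it was uncalled, so the regions of the 2 measures overlap in part. In KMS26 the 41 such regions from 15 to 20 Mb had a median fold of 3.34 over the other lines and 31 of them were highest in KMS26. The 73 between 0 and 15 Mb had a median fold of 0.520, and none was highest there. In KMS12BM 14 of the 15 over the first 2 Mb were highest, with a median fold of 3.91. In L363 the 50 from 16 Mb onward had a median fold of 2.28, and 2.18 in its lenalidomide library.

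**Figure D3:**
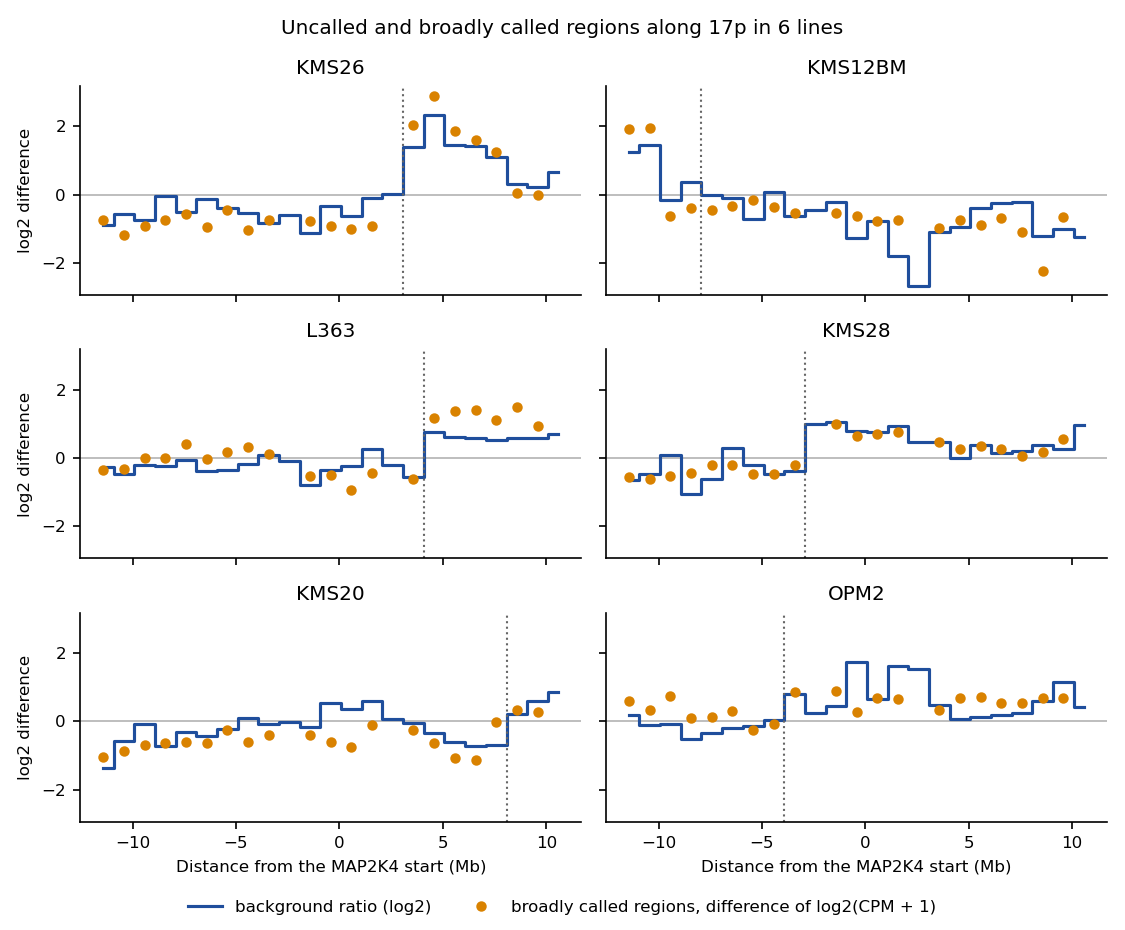
The 6 lines with the largest step, with the log2 background ratio of 1 Mb windows (blue line) and the median difference of log2(CPM + 1) from the other lines in regions called in at least 18 of 22 lines (orange points), against distance from the MAP2K4 start. The dotted line is the split of each line, and the points change across the split in the same direction as the line in all 6 lines.

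Over the whole arm the same held for the 45 regions called in all 28 libraries. Their share of the reads in all 6047 such regions ran, relative to the median line, from -0.87 in KMS11 to 1.09 in KMS26 on the log2 scale. Reads in the 45 regions ran from 1926 in XG-6 to 8309 in H1112. The share correlated with the background ratio at a Pearson r of 0.75 and a Spearman rho of 0.83 over 22 lines. Without LP1 and KMS18 the Pearson r was 0.72. This share differed by 0.14 within a line and by 0.26 between lines, with an exact permutation p of 0.0389 that did not hold after adjustment (0.0972). Taken one by one, the widely called regions of 17p had a median Pearson r of 0.50 with the arm's background ratio, and 125 of 126 were above 0. On 17q 95 of 411 were above 0 (median -0.14), and outside 17p 51.3% of 12045 (median 0.01).

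**Figure D4:**
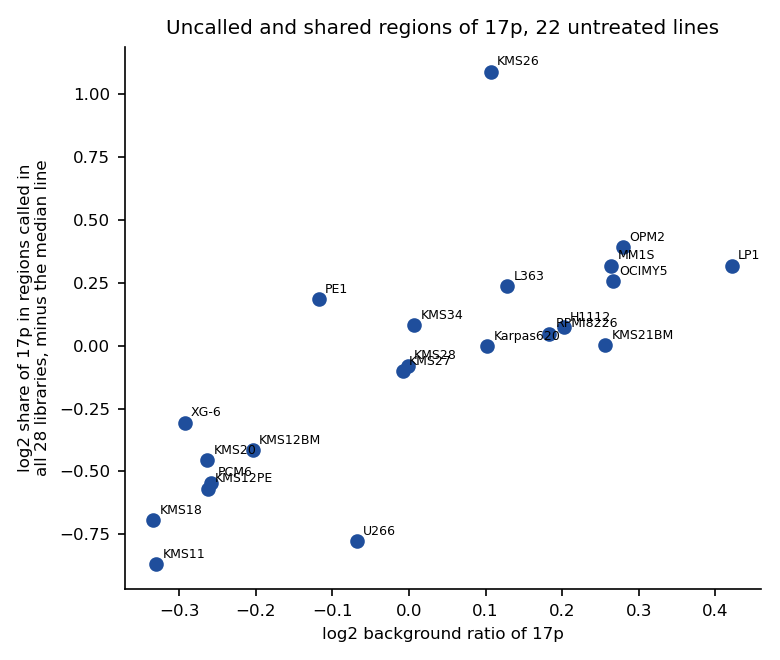
The log2 share of 17p in regions called in all 28 libraries, relative to the median line, against the log2 background ratio of 17p, for the 22 untreated lines. KMS26 lies above the other lines and U266 below those with a like background ratio.

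Lines with a higher background ratio had a larger share of 17p regions called, relative to their share called over all regions. In the untreated lines between 147 (PE1) and 568 (H1112) of the 1160 regions were called, 12.7% and 49.0%, where 13.6% and 38.1% of all regions were called in these lines. The share called on 17p minus the share over all regions ran from -4.91 percentage points in PCM6 to 10.9 in H1112. KMS11 called 14.4% on 17p and 19.1% over all, XG-6 17.2% and 21.9% and KMS20 31.4% and 35.1%. This difference had a Pearson r of 0.82 and a Spearman rho of 0.85 with the background ratio, and r was 0.85 without LP1 and KMS18. All 22 lines called 46 regions, 3.97% (exact binomial 95% interval 2.92 to 5.25) where 3.98% of all regions were called by all. Exactly 1 line called 414 regions, 35.7% (32.9 to 38.5) against 37.1% of all. No untreated line called 110 regions, 9.48% (7.86 to 11.3) against 8.06% of all. Of the 414 regions, 138 were those of H1112, the deepest library, which is 11.9% of 17p regions (10.1 to 13.9) where 8.89% of all regions and 5.29% of 17q regions were called by H1112 alone.

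The start regions of the listed genes carried the same segments. Of 45 genes, 36 had a region within 2.5 kb of the start, each a region of its own. Of these genes 10 were called in all 22 lines, where 3.98% of all regions were. The share among all regions near a start is not given here, so these counts do not set the listed genes apart from other genes. In the 15 to 20 Mb stretch 12 listed genes had such a region, and 9 were highest in KMS26. In the first 2 Mb this was so of 4 of 5 genes in KMS12BM, and from 16 Mb onward of 4 of 14 in L363.

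**Figure D5:**
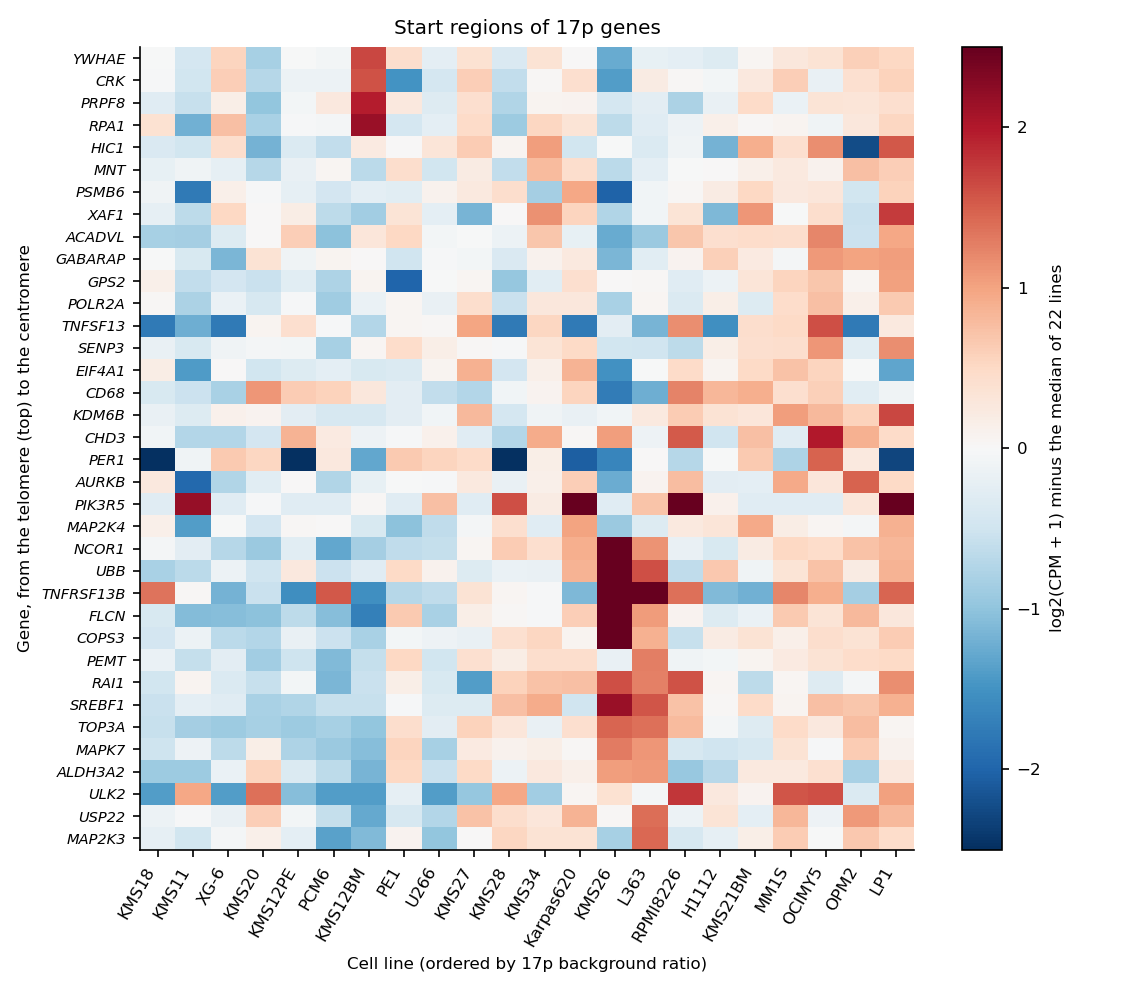
The difference of log2(CPM + 1) from the median of 22 untreated lines at the start regions of 36 genes of 17p, from the telomere (top) to the centromere, with lines ordered by the background ratio of the arm. KMS26 is high from NCOR1 to ALDH3A2 except at PEMT, and KMS12BM from YWHAE to RPA1.

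Of 8 genes listed between 7 and 9 Mb, 7 had a start region, and EIF4A1, an RNA helicase of translation initiation, was called in all lines. PER1, a circadian repressor, had the widest range of these genes, from 0 CPM in KMS12PE, KMS18 and KMS28 to 18.6 in OCIMY5 (median 6.03). AURKB, a mitotic kinase, ran from 1.84 in KMS11 to 29.7 in OPM2 (median 10.1). CHD3, a chromatin remodeller, was called in no line and ran from 0 in 3 lines to 5.601 in OCIMY5 (median 0.659). The narrowest was POLR2A, the largest subunit of RNA polymerase II, from 19.5 in PCM6 to 63.7 in OCIMY5 (median 37.3). SENP3, a SUMO protease, ran from 7.90 in PCM6 to 34.3 in LP1 (median 14.8), and KDM6B, an H3K27 demethylase, from 6.03 in KMS28 to 29.1 in LP1 (median 8.49). At POLR2A, SENP3 and KDM6B every line had at least 6.03 CPM.

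Of the B cell and plasma cell ligands and receptors, 4 of 5 had a start region and none was called in all lines. TNFRSF13B was called in 3 lines, and ran from 0.255 CPM in KMS12PE through a median of 2.68 to 78.9 in KMS26, 29.5 times the median. The background ratio of its segment in KMS26, described above, was 2.90. XAF1, an inhibitor of XIAP, ran from 0.675 in KMS27 to 11.7 in LP1 (median 2.77), and CD68, a lysosomal glycoprotein, from 1.83 in KMS26 to 21.3 in RPMI8226 (median 8.49). TNFSF13, which encodes the ligand APRIL, ran from 0 in Karpas620, KMS18, KMS28, OPM2 and XG-6 to 9.43 in OCIMY5 (median 2.39).

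All 6 kinase and adaptor genes had a start region. MAP2K4, the JNK and p38 kinase kinase, was called in 19 lines, with a lowest value of 4.14 CPM in KMS11, a median of 12.5 and a highest of 26.0 in Karpas620. MAPK7, which encodes ERK5, was called in all lines, from 27.6 in KMS12BM through 58.5 to 146 in KMS26. CRK, an adaptor, ran from 5.63 in PE1 through 17.7 to 55.5 in KMS12BM, and MAP2K3, a p38 kinase kinase, from 11.6 in PCM6 through 31.2 to 86.2 in L363. PIK3R5, a PI3K gamma subunit, was called in 2 lines, with a median of 0.239 and a highest value of 13.7 in RPMI8226, and ULK2, an autophagy kinase, in 3 lines, with a median of 1.63 and a highest of 8.03 in RPMI8226.

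Of the 7 transcription factors and corepressors, 6 had a start region, and 3 were highest in KMS26. NCOR1 was called in 21 lines and ran from 7.90 CPM in PCM6 through 21.1 to 127 in KMS26, 6.01 times the median. SREBF1, the lipid synthesis factor, ran from 10.1 in KMS20 through 18.6 to 86.2 in KMS26, and RAI1, the gene of Smith-Magenis syndrome, from 1.01 in KMS27 through 4.32 to 15.3 in KMS26. MNT, a MAX partner that opposes MYC, was called in all lines with the narrowest range, from 23.2 in KMS20 through 38.9 to 68.4 in KMS34. HIC1, a repressor, ran from 0.522 in OPM2 through 6.18 to 19.98 in LP1, and GPS2, an NCOR complex subunit, from 0.625 in PE1 through 5.49 to 12.2 in LP1.

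All 8 genes of protein turnover and RNA had a start region and 4 were called in all lines. PSMB6, the caspase-like proteasome subunit, was called in 8 lines, from 0.611 CPM in KMS26 through 5.52 to 11.8 in Karpas620. COPS3, a COP9 signalosome subunit, ran from 16.3 in KMS12BM through 29.5 to 233 in KMS26, 7.90 times the median, and UBB, a polyubiquitin gene, from 9.54 in KMS18 through 17.5 to 126 in KMS26. RPA1, the single-strand DNA binding protein, ran from 5.51 in KMS11 through 14.0 to 66.0 in KMS12BM, and YWHAE, a 14-3-3 protein, from 7.34 in KMS26 through 19.1 to 62.9 in KMS12BM. PRPF8, a splicing factor chosen after its values were seen, was also highest in KMS12BM, at 85.2 with a median of 21.1. USP22, a deubiquitinase, ran from 17.4 in KMS12BM through 43.7 to 117 in L363, and GABARAP, an autophagy protein, from 1.22 in KMS26 through 3.94 to 9.43 in OCIMY5. PSMB6 and GABARAP, on the telomeric side, and COPS3 and UBB, on the centromeric side, thus had KMS26 at opposite ends.

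Of folliculin and metabolism all 5 had a start region and 3 were called in all lines. FLCN, the Birt-Hogg-Dubé gene, ran from 5.26 CPM in KMS12BM through 19.5 to 119 in KMS26, and TOP3A, a topoisomerase, from 12.4 in KMS12BM through 25.6 to 71.5 in KMS26. PEMT, a phospholipid methyltransferase, ran from 17.7 in PCM6 through 39.3 to 96.9 in L363, and ALDH3A2, an aldehyde dehydrogenase, from 18.2 in KMS12BM through 42.3 to 90.8 in L363. ACADVL, a mitochondrial acyl-CoA dehydrogenase, ran from 1.83 in KMS26 through 5.77 to 14.7 in OCIMY5. The 6 muscle myosin heavy chain genes of the arm had no region within 2.5 kb of a start.

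The regions with the highest mean were at small RNA genes. SNORD3A (chr17:19090861-19092264), SNORD3B-1 (chr17:18964764-18966124) and SNORD3D (chr17:19013724-19016447), copies of the U3 small nucleolar RNA gene, had means of 86.6, 82.6 and 81.7 CPM (SD 47.8, 60.7 and 53.5, n = 22). All 3 were highest in KMS26 and lowest in KMS20, and because the copies are nearly identical the reads of one can be placed at another. AC104024.2 (chr17:16891331-16893350) had a mean of 83.5 and reached 507 in KMS26 against 106 in L363, the next line. MIR22HG (chr17:1619357-1620930), the host gene of miR-22, had a mean of 76.5 and reached 239 in KMS12BM against 102 in PCM6.

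Each of the 5 regions that varied most between lines was at 0 CPM in at least 1 line. The start of HS3ST3B1, a heparan sulfate sulfotransferase gene (chr17:14203910-14204802), had an SD of log2(CPM + 1) of 2.31, was called in 13 lines and was under 1 CPM in 6. It ran from 0 in PCM6 to 94.95 in OPM2, and was 0.263 in KMS12BM and 0.509 in KMS12PE. The start of FAM64A, a mitotic regulator (chr17:6346954-6347890, SD 1.72), was under 1 CPM in 4 lines, among them 0 in L363, and reached 47.8 in LP1. The intronic region of ANKFY1 (chr17:4079235-4080115, SD 1.66) ran from 0 in KMS26, MM1S, PE1 and RPMI8226 to 31.0 in KMS21BM, and that of SMG6 (chr17:2126222-2126801, SD 1.59) from 0 in KMS12BM, KMS34, L363 and OPM2 to 19.1 in LP1. The region downstream of RAP1GAP2 (chr17:2951921-2952630, SD 1.59) was 0 in L363 and 34.3 in XG-6. Their central sequences are given above, except HS3ST3B1, whose central bases lie in its first exon.

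Runs of neighbouring 17p regions without reads were small beside the largest of other arms. A run of neighbouring regions with 0 counts in a line was listed where the other lines predicted at least 10 counts, which gave 73 runs on 17p in 20 lines, of 9041 on all arms. 17p thus held 0.807% of the runs and 0.748% of the regions. The most expected counts were 55.9 on 17p and 922 elsewhere, in KMS20 on 11q. On 17p, PCM6 held the first, chr17:8484392-8558408 at MYH10, a non-muscle myosin gene, with 6 regions, and the second, chr17:14106971-14248862 around HS3ST3B1, with 8 regions and 51.5 expected. KMS12PE lacked reads at chr17:20811562-20812261 (34.4 expected) and over 3 regions at chr17:20395392-20435780 (28.9 expected). L363 lacked reads at the region downstream of RAP1GAP2 (29.1 expected), where its lenalidomide library also had 0 counts. A single region made up 30 of the 73 runs. A region that is closed in a line and one that is lost cannot be told apart by such a run.

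A change of the 17p ratio with lenalidomide was not detected. The lenalidomide library minus the untreated one was 0.03 ± 0.12 (SD, n = 6) on the log2 scale, with an exact sign-flip permutation p of 0.594 (adjusted 0.594), where the smallest p that 6 lines allow is 0.03125. The ratio was higher in 4 of 6 lines, by 0.21 in RPMI8226, 0.10 in Karpas620, 0.06 in OPM2 and 0.00 in KMS27, and lower in MM1S and L363 (-0.11 and -0.10).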

How the data were processed

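ATAC-seq reads of 28 libraries from human myeloma cell lines were, per the labels and the submitters' processing notes, mapped with Bowtie2 2.2.6, handled with SAMtools 1.7 and called per library with MACS2 2.1.0.20151222 on GRCh37. The deposited counts are whole numbers per merged region with no normalization, and the authors' second table was read as the number of a library's own peaks in a region, which the files do not define. Whether reads or fragments were counted is not given in the sources used here. Uncalled regions were fitted by a multiplicative model (library by region) over the 22 untreated libraries. Arms were split at the largest gap between regions, and arms under 200 regions were left out. Starts came from canonical transcripts of GENCODE on GRCh37. Python 3 tools were numpy, pandas and scipy, with TMM factors from edgeR, and the fit was tested on simulated data. Exact permutation tests were used and adjusted by Benjamini-Hochberg over 5 tests. Intervals and floors cover counting error only, and the repeat libraries differ in treatment. Genes were named by fixed lists of 17p genes by role, with the 3 widest and 3 narrowest ranges of a list in full, the 5 regions highest in mean and in SD, the 5 runs with most expected counts and the 3 lowest and 3 highest lines. Some listed items, and 1 of the 5 tests, are not reported here. Members and lists were chosen with earlier results of these data known. Alternatives are given in the closing section, and those for the steps were added after the data were seen.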

Additional observations from a re-analysis of the deposited data

Results flagged for a closer look

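Among 12 sets of 6 values screened, 3 had a value far from the other 5 (about 0.6 are expected by chance at 1 in 20). The 17q background ratio of the lenalidomide library of RPMI8226 was 0.44 on the log2 scale, and the next of the 6 lenalidomide libraries was at -0.05. The TNFRSF13B start region of L363 was at 29.6 CPM, and the next of the 6 untreated libraries was at 8.50. The MAP2K4 start region of Karpas620 was at 26.0 CPM, and the next was at 15.1.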

How the results depend on the processing

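The SD of the 17p ratio over lines stayed between 0.20 and 0.30, and between 5 and 8 lines lay at or below -0.2, under 8 other computations of the background. The ratio had the same sign under all of them in 15 of 22 lines. KMS26, with a stepped arm, was at 0.11 and ran from -0.34 with the median over windows and -0.16 without the top 5% of regions to 0.26 with regions over 2.5 kb from a start and 0.48 with regions called in at most 3 libraries. The p-values of the alternatives are not adjusted. The within-line difference of the 17p ratio was 0.0898 with regions over 2.5 kb from a start (exact permutation p = 0.05). With the GC trend removed it was 0.0668 (exact permutation p = 0.0111). In the other 12 alternatives, leaving out a line included, the exact permutation p ran from 0.0597 to 0.367. Leaving out a line gave 0.0754 to 0.117 for 17p. For 17p minus 17q it gave 0.0321 to 0.0590 (exact permutation p = 0.00833 in 6 of 6). For shared regions it gave 0.129 to 0.169 (exact permutation p from 0.0333 to 0.233, at or below 0.05 in 2 of 6). For lenalidomide it gave -0.00867 to 0.0562, negative without RPMI8226. The lenalidomide change was also negative with the GC trend removed (-0.0164) and without the top 5% (-0.00189). The correlation with shared regions fell to 0.459 with the median over windows. Runs of 0 counts numbered 14 at 20 or more expected counts. The steps of the 6 lines kept their sign under 6 computations added after the data were seen, from 1.05 to 2.45 in KMS26, -1.58 to -0.78 in KMS12BM and 0.43 to 0.99 in the other 4. The causes were not tested. The lenalidomide comparison is paired by cell line. Untreated, each line was assayed once, and windows between 11 and 15 Mb rest on few reads.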
